A study of Mus musculus with 24 samples.

Results

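The genes described here are those annotated to mouse chromosome 3 that reached 1 FPKM (fragments per kilobase of transcript per 1 M fragments) in at least 3 of 24 RNA-seq libraries, without Cpa3, the mast cell carboxypeptidase A3 gene. They number 596 of the 55385 genes in the deposited table and of the 2883 that it places on the chromosome, and 471 of them are protein-coding. All 596 were above the filter on low values by definition, 452 of them in all 24 libraries. The set was chosen by a measured value, because chromosome 3 genes had been seen to be higher in cells with an Esr1 hairpin, so every comparison of hairpin cells with other cells below is a description and no test is read from it. At the threshold, 11 members passed with exactly 3 libraries and 14 genes of the chromosome fell short with 2. The members nearest to it were Gm22027 and Zfp267, with 1.008 FPKM each in their third-highest library, and the nearest genes left out were Gm6439 at 0.9967 and Gm5841 at 0.9898 FPKM.

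The libraries came from P815, a mouse mastocytoma (mast cell tumour) line, in 8 groups of 3. Cells carried a negative control vector (NC), the same with β-estradiol for 24 h (NC_E2), an ESR1-specific shRNA vector (SH), or that vector with β-estradiol for 24 h (SH_E2). The other cells received the estrogen receptor inhibitors ICI-182780 or tamoxifen for 24 h, each without (ICI, Tamo) and with β-estradiol (ICI_E2, Tamo_E2), and no vector is named for them. SH and SH_E2, 6 libraries, are called the hairpin arm below, and the 18 others are the NC, ICI and Tamo arms. The labels give no doses, and nothing in them says that the libraries of one group came from separate cultures or that the hairpin cells were a clone or a pool. A p-value here thus sets a difference between groups only against the spread among these libraries, and that spread may be technical. The strand protocol is not stated, so reads of overlapping or antisense genes cannot be told apart.

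Neighbouring genes lie on the same stretch of DNA and share its copy number and, in part, its chromatin, so RNA levels are often averaged in windows along a chromosome to see whether a shift spans single genes, a segment or a whole chromosome. Mouse chromosome 3 carries genes of many unrelated roles, among them the S100 calcium-binding protein cluster, the survival gene Mcl1, the serine synthesis gene Phgdh, the receptor gene Notch2 and the transcription factor gene Nfkb1. DNA was not measured here.

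By a division described below that was fitted to these data, the shift began between neighbouring members Jtb and Slc39a1, whose upstream sequences are therefore shown. Jtb, which encodes a transmembrane protein (ENSMUSG00000027937, chr3:90231597-90235838, plus strand, GRCm38), was the last member before the shift, and Slc39a1, a zinc transporter gene (ENSMUSG00000052310, chr3:90248172-90253612, plus strand), was the first member in it, 16.6 kb further on. The 250 bases before each start site are taken from RefSeq (GRCm38.p6), at chr3:90231347-90231596 for Jtb and chr3:90247942-90248191 for Slc39a1, 5′ to 3′. Capitals mark a GC box (GGGCGG, or CCGCCC on the other strand) or a CCAAT box (CCAAT, or ATTGG on the other strand).
Jtb: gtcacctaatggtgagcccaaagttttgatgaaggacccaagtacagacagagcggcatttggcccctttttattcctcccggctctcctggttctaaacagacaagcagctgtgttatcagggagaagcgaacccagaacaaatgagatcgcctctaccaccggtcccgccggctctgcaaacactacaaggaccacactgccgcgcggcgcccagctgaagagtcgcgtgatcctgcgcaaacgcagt
Slc39a1: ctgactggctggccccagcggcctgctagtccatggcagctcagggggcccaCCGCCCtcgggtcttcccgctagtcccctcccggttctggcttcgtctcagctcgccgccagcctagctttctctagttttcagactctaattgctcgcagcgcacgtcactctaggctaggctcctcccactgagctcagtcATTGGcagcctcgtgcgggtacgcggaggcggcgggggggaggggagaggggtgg
The Jtb window held 0 GC boxes and 0 CCAAT boxes, and 15 CpG dinucleotides at 55.6% G + C. The Slc39a1 window held 1 of each box and 17 CpG dinucleotides at 66.4% G + C. Of coding members, 144 of 170 in the raised stretches and 243 of 301 outside them matched a promoter of this table. A GC box stood in 57.6% of the former and 57.6% of the latter, against 32.7% of all 32851 promoters of the same length. The 32851 were taken without the filter on FPKM, while each matched coding member gave 1 promoter, so the sets are unlike. Median CpG dinucleotides were 6 in all promoters and 15 in both sets of members. A CCAAT box stood in 40.3% and 33.7%, against 33.8% of all. The estrogen response element GGTCANNNTGACC was in 0 of the 144 and 0 of the 243, and in 0.0639% of all promoters. These matches describe letters in a window of 250 bases and nothing beyond it.

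Libraries held 42.1 to 68.8 M estimated counts (median 54.2), and 12183 genes were tested. The targeted gene Esr1, on another chromosome, stood at 0.181 to 0.347 FPKM in the hairpin arm (median 0.24) and at 0.161 to 0.52 in the 18 others (median 0.345), so the arms overlapped. Of 14 mast cell markers, 10 had a mean of 1 FPKM or more, with Kit at 98.3 to 175 FPKM over all libraries. The 14 summed to 1040 to 1250 FPKM in the hairpin arm and 806 to 1070 in the others, a sum that includes Cpa3 at 463 to 586 and 134 to 311 FPKM. Tpsb2, a tryptase gene, was lower in the hairpin arm, at no more than 0.122 FPKM in any library against 0.404 to 1.48 in the others, and Fcer1a reached at most 0.937 FPKM in any library. T cell and B cell markers summed to at most 0.385 FPKM in any library. Megakaryocyte markers, 3 of 4 at a mean of 1 FPKM or more, summed to 67.8 to 82.4 FPKM in the hairpin arm and 19.1 to 25.2 in the others, and macrophage markers, 2 of 6, to 29.9 to 36.4 and 20.9 to 31. The megakaryocyte sums did not overlap between the arms, while the mast cell and macrophage sums did. Mast cell markers other than Cpa3 went both ways. Median FPKM in the hairpin arm and the others was 92.3 and 149 for Srgn, 2.62 and 3.56 for Cma1, and 115 and 130 for Kit. It was 32.2 and 27.5 for Hdc, and 170 and 163 for Gata2. The part of these marker levels in the results was not tested.

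Over all members, chromosome 3 RNA was slightly higher in hairpin cells. The median log2 fold change was 0.13 for SH against NC and 0.12 for SH_E2 against NC_E2, where the median of all tested genes was 0.00 and -0.00. Against the inhibitor arms the member medians were 0.11 (SH against ICI), 0.14 (SH against Tamo), 0.11 (SH_E2 against ICI_E2) and 0.11 (SH_E2 against Tamo_E2). A median of this size was not limited to chromosome 3: that of chromosome 1 was 0.10 for SH against NC, 0.09 for SH_E2 against NC_E2 and 0.13 for SH against Tamo, and that of chromosome 19 was -0.32, -0.35 and -0.35. The first pair of comparisons shares no library, while the others share hairpin libraries with them. In bulk RNA, fewer cells of a type and less RNA per cell cannot be told apart. A library's level, the median over members of log2 counts per 1 M minus the mean of the 6 NC and NC_E2 libraries, was 0.11 to 0.17 (median 0.13) in the hairpin arm and -0.05 to 0.04 (median 0.01) in the 18 others, with no overlap. Without SH replicate 1 the median against Tamo was 0.08, and without the filter on FPKM the median against NC was 0.04.

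Counts of single genes showed the same asymmetry. By edgeR (adjusted p under 0.05 over all genes tested, here only a threshold for counting), 84 members were higher and 20 lower in SH than in NC, or 14.1% and 3.36%, where the same rule called 4.92% of all tested genes higher and 4.15% lower. For SH_E2 against NC_E2 the counts were 84 and 18, beside 5.3% and 4.28% of all genes. They were 80 and 24 against ICI (all genes 4.93% and 4.3%), and 92 and 26 against Tamo (5.96% and 5.29%). With β-estradiol they were 85 and 23 against ICI_E2 (5.01% and 4.36%), and 90 and 31 against Tamo_E2 (5.99% and 5.43%). In 82 members all 6 hairpin-arm libraries were above all 18 others in scaled counts per 1 M, 13.8% of members against 4.77% of all tested genes, and in 17 all 6 were below, 2.85% against 3.81%. Of the members, 73 were called higher both with and without β-estradiol, 12.2% against 3.94% of all tested genes, and 61 in all 6 comparisons, 10.2% against 3.13%.

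The count depended on how the spread was estimated. With the replicate number as a block, 138 members were higher and 50 lower in SH than in NC (11% and 10.2% of all genes). With the 6 libraries of the contrast alone they were 44 and 7 (2.58% and 1.99% of all genes), and 49 and 8 in SH_E2 against NC_E2 (2.59% and 1.95%). The 18 lower calls of SH_E2 against NC_E2 were 11 without NC_E2 replicate 1, 11 without NC_E2 replicate 3, 10 without SH_E2 replicate 2 and 9 without SH_E2 replicate 3. Shares of all tested genes are not given for these leave-out fits, so whether the fall is particular to members was not tested.

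The small shift over the chromosome was made of large shifts in a few windows and none in most. In windows of 10 Mb by gene start, the median log2 fold change of SH against NC was 0.43 from 90 to 100 Mb (119 members), 0.44 from 130 to 140 Mb (39 members) and 0.51 from 140 to 150 Mb (26 members). It was 0.24 from 150 to 160 Mb (21 members) and 0.14 from 120 to 130 Mb (36 members). The other 11 windows had medians between -0.14 (10 to 20 Mb) and 0.13 (70 to 80 Mb). The window just before the first peak, 80 to 90 Mb with 87 members, was at 0.01, and the one just after it, 100 to 110 Mb with 83 members, at -0.07. A segmental pattern, not a shift of the whole chromosome, was therefore measured.

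The members of these windows moved together. From 90 to 100 Mb, 96 of 119 members were above 0, with quartiles of 0.15 and 0.72, and 33 were called higher and 0 lower. From 130 to 140 Mb, 34 of 39 were above 0, with 14 called higher and 0 lower. From 140 to 150 Mb, 25 of 26 were above 0, with 10 called higher and 1 lower. In the 80 to 90 Mb window 44 of 87 were above 0, with 6 called higher and 4 lower. Of all tested genes 4.92% were called higher and 4.15% lower.

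With β-estradiol the profile was alike. SH_E2 against NC_E2 had medians of 0.41 from 90 to 100 Mb, 0.45 from 130 to 140 Mb, 0.62 from 140 to 150 Mb and 0.29 from 150 to 160 Mb, beside 0.25 from 120 to 130 Mb, and the other 11 windows lay between -0.16 and 0.08. Against ICI, SH had medians of 0.39, 0.40 and 0.59 in the 90, 130 and 140 Mb windows. Against Tamo they were 0.37, 0.47 and 0.61.

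Each hairpin-arm library showed the raised windows. From 90 to 100 Mb the 6 libraries stood at 0.34 to 0.53 above the NC arm (median 0.39) and the 18 others at -0.05 to 0.08. From 130 to 140 Mb they stood at 0.40 to 0.52 and -0.12 to 0.10. From 140 to 150 Mb the values were 0.50 to 0.61 and -0.15 to 0.08, and from 150 to 160 Mb 0.18 to 0.43 and -0.09 to 0.10. The arms did not overlap in any of these 4 windows. They overlapped from 120 to 130 Mb, at 0.05 to 0.38 and -0.05 to 0.11, and from 80 to 90 Mb, at -0.06 to 0.04 and -0.07 to 0.05.

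**Figure D1:**
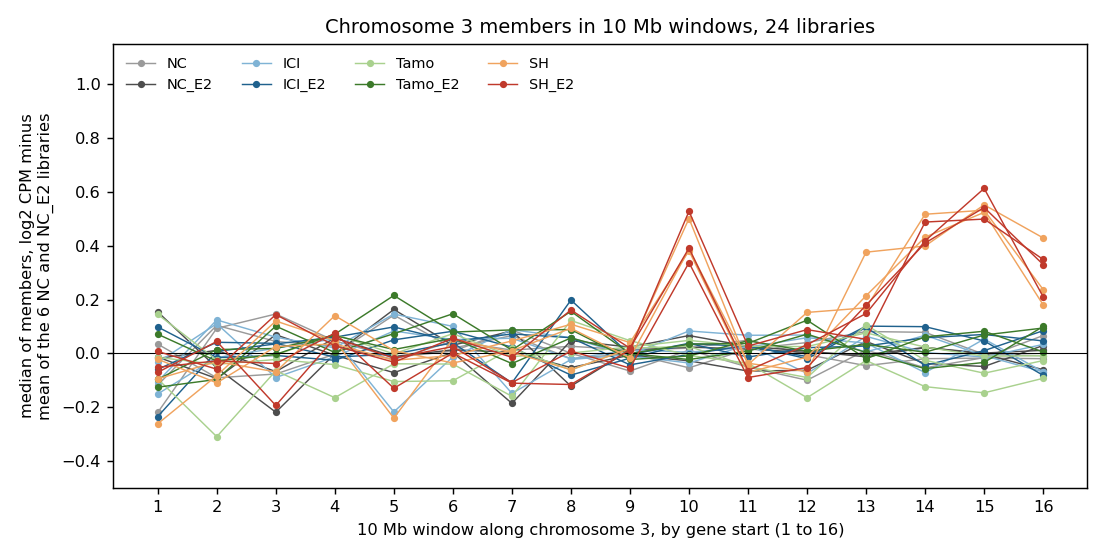
Median level of chromosome 3 members in each of 16 windows of 10 Mb (x axis, window number from the start of the chromosome) in each of 24 libraries (1 line each, coloured by group), as log2 counts per 1 M minus the mean of the 6 NC and NC_E2 libraries. The 6 SH and SH_E2 lines leave the others in window 10 (0.34 to 0.53) and in windows 14 to 16, and lie among them in window 9 and window 11.

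Where the shift begins and ends was read at the level of genes, by dividing the coding members in order of start into 4 runs, each as close as possible to its own median. This division was chosen after seeing the data. The first run, Pex2 at 5.56 Mb to Jtb at 90.23 Mb, had a median of -0.01 over 203 coding members. The second, Slc39a1 at 90.25 Mb to Phgdh at 98.31 Mb, had 0.55 over 85, and is called the first raised stretch. The third, Wars2 at 99.14 Mb to Sec24d at 123.27 Mb, had -0.03. The fourth, Mettl14 at 123.37 Mb to Depdc1a at 159.50 Mb, had 0.47 over 85, and is called the second raised stretch.

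SH_E2 against NC_E2 uses other libraries than SH against NC, although same-numbered libraries deviated together (correlations of 0.183 to 0.472 for SH_E2 with SH and 0.17 to 0.274 for NC_E2 with NC). There the first raised stretch again ran from Slc39a1 to Phgdh, and the second began elsewhere, at Arhgap29, 121.95 Mb. The summed distance of coding members from their run's median was 184.0 with 1 run, 163.7 with 3, 151.0 with 4 and 149.8 with 5, so the step from 4 to 5 runs lowered it little. With 5 runs, both comparisons set apart 25 coding members from Wars2 at 99.14 Mb to Tafa3 at 104.77 Mb. Their median was 0.16 in SH against NC and 0.17 in SH_E2 against NC_E2. With 7 runs, SH against NC also set apart 14 coding members from Fcrls at 87.25 Mb to Iqgap3 at 88.08 Mb, with a median of 0.42, which SH_E2 against NC_E2 did not. Among these 14 were Prcc (0.60), Isg20l2 (0.62) and Naxe (0.60), all of them called higher and named after their values were seen.

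At the first edge the values of SH against NC stepped up, at a place chosen because it divided these values best. The last 5 coding members before it, 1700094D03Rik, Tpm3, Nup210l, Rps27 and Jtb, had log2 fold changes of -0.46, -0.17, -0.31, -0.23 and 0.07. The first 5 in it, Slc39a1, Crtc2, Dennd4b, Gatad2b and Slc27a3, had 0.43, 0.55, 0.59, 0.86 and 0.20. For SH_E2 against NC_E2 the 5 before the edge had -0.15, 0.60, -0.37, -0.56 and -0.06. The 5 after it had 0.42, 0.57, 0.65, 0.56 and 0.22, so Tpm3 before the edge was above Slc39a1. In windows of 5 Mb, the SH against NC median was 0.24 from 90 to 95 Mb and 0.47 from 95 to 100 Mb. Jtb stood at 25.6 to 31.8 FPKM in the hairpin arm (median 30.2) and 19.1 to 32.4 in the 18 others (median 28.2), fully overlapping. Slc39a1 stood at 34.6 to 39.9 FPKM (median 36.9) against 22.6 to 30.8 (median 25.8), without overlap. By group Slc39a1 was at 36.2 ± 1.47 FPKM in SH and 37.9 ± 1.75 in SH_E2 (SD, n = 3). The NC arm was at 25.8 ± 0.952 without and 27.3 ± 3.09 with β-estradiol, the ICI arm at 26.2 ± 2.07 and 26.2 ± 1.58, and the Tamo arm at 26.8 ± 4.06 and 27.1 ± 2.68. Creb3l4, the only coding gene of the table between them, was below the filter.

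The end of the first raised stretch was less sharply placed. Its last genes were among those shifted most, with Sec22b at 0.96, Notch2 at 1.21 and Phgdh at 0.96, and the next coding members, Wars2, Wdr3 and Gdap2, were at 0.13, -0.15 and -0.06. Phgdh and Wars2 start 0.828 Mb apart, and the 10 coding genes of the table between them, most of them of the Hsd3b steroid enzyme family, were below the filter. Wdr3, which acts in ribosome assembly, stood at 23.1 to 25.6 FPKM in the hairpin arm and 23.5 to 29.4 in the others. Beyond it, Tent5c and Man1a2 at 100.45 and 100.56 Mb were again higher (1.11 and 0.49).

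The second raised stretch began between Sec24d, a coat protein gene of vesicles leaving the endoplasmic reticulum, and Mettl14, a subunit gene of the RNA m6A methyltransferase, whose starts lie 101 kb apart on opposite strands. Sec24d stood at 15.6 to 20 FPKM in the hairpin arm (median 18.4) and at 15.3 to 27.5 in the others (median 23.5), a log2 fold change of -0.29 ± 0.21. Mettl14 stood at 3.46 to 4.23 FPKM (median 3.99) against 2.02 to 3.19 (median 2.66), a log2 fold change of 0.47 ± 0.14 with no overlap. Before this edge, 3 low genes were also called higher, the GTPase-activating protein gene Arhgap29 (1.24), the transporter gene Abca4 (1.06) and the phosphodiesterase gene Pde5a (1.20), with Bcar3 (-0.98) among them, so its place between 121.95 and 123.37 Mb depended on the comparison.

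**Figure D2:**
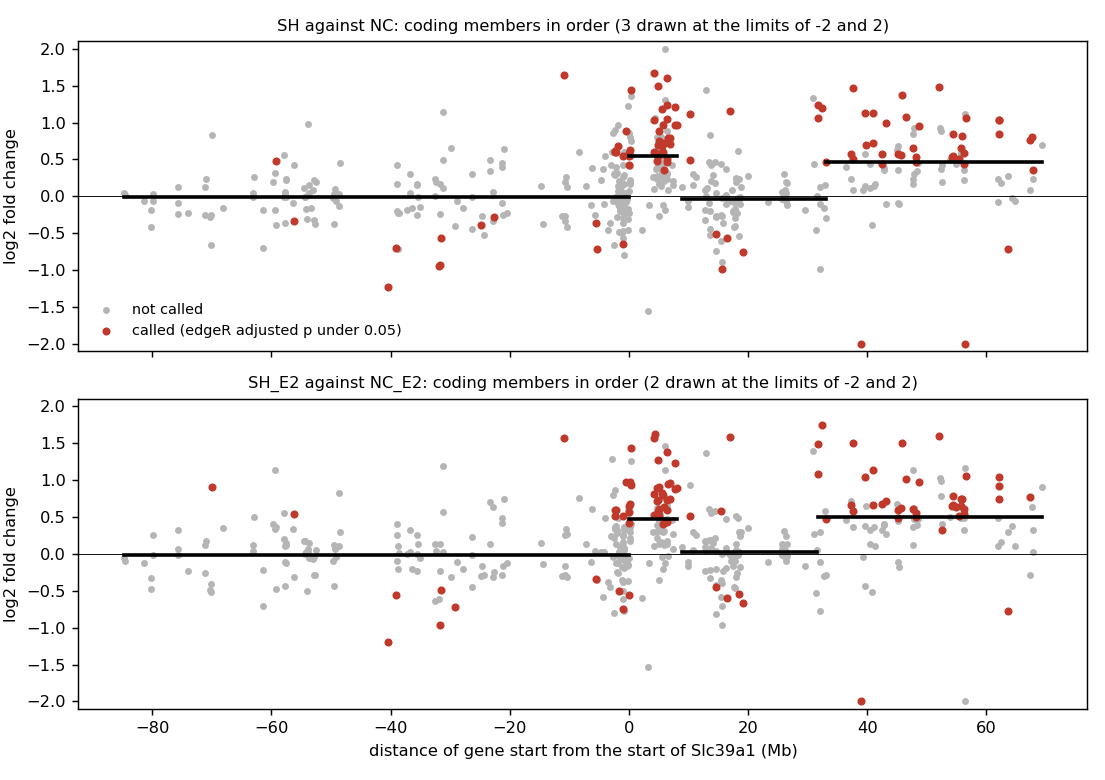
Log2 fold change of each coding member by distance of its start from the start of Slc39a1 (Mb), for SH against NC (top) and SH_E2 against NC_E2 (bottom); red points were called by edgeR (adjusted p under 0.05) and black lines are the medians of the 4 runs in that comparison. Points cluster around -0.01 before 0, around 0.55 just after it in the top panel, near 0 between the raised stretches and around 0.47 from Mettl14 on.

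The first raised stretch spans 8.06 Mb between its outer gene starts and the second 36.1 Mb, each with 107 members, 24.2 Mb lying between. The median over all 107 members was 0.45 in the first stretch (quartiles 0.22 and 0.75) and 0.42 in the second (0.14 and 0.68) for SH against NC. For SH_E2 against NC_E2 it was 0.43 and 0.46. The median of both together, 0.44, is a 1.36-fold level, and the median of the 382 members outside was -0.02, a 0.986-fold level. Of the 214 members in the raised stretches 183 were above 0, and 69 (32.2%) were called higher and 3 (1.4%) lower. Of the 382 outside, 15 (3.93%) were called higher and 17 (4.45%) lower, near the 4.92% and 4.15% of all tested genes. The counts of listed genes called in SH against NC below are to be read against the same shares of all tested genes. Without the filter on FPKM the median of the second stretch was 0.24.

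Library by library the stretches were alike in height. The first stood at 0.36 to 0.57 in the hairpin arm (median 0.42) and -0.06 to 0.09 in the 18 others (median 0.02). The second stood at 0.38 to 0.45 (median 0.42) and -0.09 to 0.08 (median 0.01). The rest of the chromosome stood at -0.05 to 0.02 and -0.04 to 0.04, with full overlap. Among same-numbered libraries SH minus NC was 0.54, 0.47 and 0.40 in the first stretch and 0.40, 0.37 and 0.45 in the second, and SH_E2 minus NC_E2 was 0.53, 0.41 and 0.39 and 0.40, 0.41 and 0.42, all of them above the range of the 18 others.

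**Figure D3:**
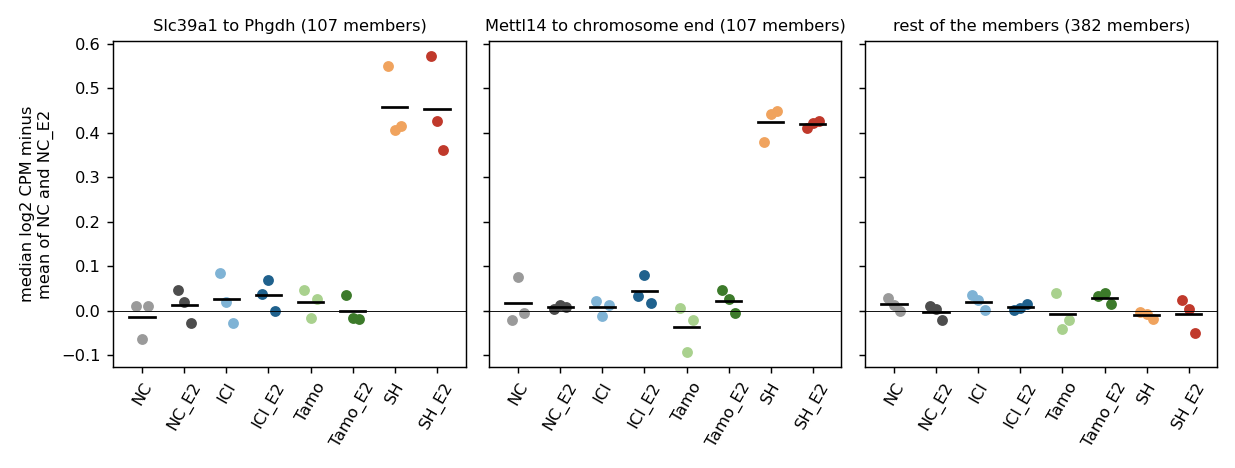
Median level of members in the first raised stretch, the second raised stretch and the rest of the chromosome in each library (points) by group (x axis), as log2 counts per 1 M minus the mean of the NC and NC_E2 libraries, with the group mean as a line. SH and SH_E2 stand at 0.36 to 0.57 and 0.38 to 0.45 in the first and second panels, and all 8 groups lie between -0.05 and 0.04 in the third.

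The shift was seen in each of 3 classes of expression level, and mainly in coding members. The stretches were cut by the values of coding members alone, which favours these members over the others. In both stretches together the median of SH against NC was 0.37 for 95 members under 5 FPKM, 0.53 for 70 members of 5 to 20 FPKM and 0.36 for 49 members of 20 FPKM or more. It was 0.50 for the 170 coding members, of which 154 were above 0, and 0.14 for the 44 others, of which 29 were above 0 and 1 was called. With β-estradiol the coding members were again at 0.50, but the others were at 0.03 with 23 of 44 above 0, and at -0.05 with 9 of 22 above 0 in the second stretch. Those others are pseudogenes, small RNAs and long non-coding RNAs, and reads of pseudogenes can belong to their parent genes elsewhere.

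In the first raised stretch, the largest shifts were found in genes of unrelated roles. Celf3, an RNA-binding splicing regulator gene best known from brain, stood at 37.2 to 65.7 FPKM in the hairpin arm (median 62.7) and 12.7 to 25.7 in the others (median 17.6), a log2 fold change of 1.67 ± 0.27 (SE). S100a4, a calcium-binding protein gene, stood at 243 to 292 FPKM (median 269) against 61.1 to 135 (median 91.3), 1.44 ± 0.26. Every hairpin-arm library was above every other library for both. Its neighbours in the S100 cluster differed from it. S100a6 stood at 161 to 241 against 81.7 to 163 FPKM (0.55 ± 0.23, not called), and S100a10 at 119 to 152 against 101 to 186 (-0.12 ± 0.18, not called).

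Among signalling genes of this stretch, Notch2, the gene of a Notch receptor, stood at 17.5 to 22.4 FPKM in the hairpin arm (median 19.8) and 7.02 to 19.0 in the others (median 7.6), a log2 fold change of 1.21 ± 0.28. Its arms overlapped through a single library, Tamo replicate 2 at 19.0 FPKM. The stretch held 4 of the 31 members listed for growth and receptor signalling, and all 4 were above 0, with a median of 0.57 and 2 called higher.

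Of 10 listed genes of transcription and chromatin in this stretch, 10 were above 0 and 4 were called higher, with a median of 0.69. Setdb1, a histone H3 lysine methyltransferase gene, stood at 29.4 to 38.8 FPKM (median 33.0) against 15.1 to 20.1 (median 17.6), 0.88 ± 0.10. By group it was at 17.5 ± 0.449 FPKM in NC and 33.6 ± 4.0 in SH, and at 17.4 ± 0.465 in NC_E2 and 33.7 ± 4.71 in SH_E2 (SD, n = 3). Pias3, a SUMO ligase and STAT3 inhibitor gene, stood at 5.85 to 8.68 against 2.28 to 4.77 FPKM (1.24 ± 0.24). The histone chaperone gene Anp32e, at 41.1 to 88.2 against 29.4 to 65.8 FPKM (0.98 ± 0.33), overlapped and was not called.

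Survival genes of the stretch were not uniform. Txnip, a thioredoxin-binding protein gene, stood at 210, 66.8 and 72.3 FPKM in SH and at 175, 68.4 and 84.1 in SH_E2, with 32.1 to 62.2 in the 18 others. All 6 were above the others, and replicate 1 was the highest of both hairpin groups. The log2 fold change was 1.61 ± 0.37, but 0.88 and not called without SH replicate 1. Mcl1, an anti-apoptotic BCL2 family gene, stood at 84.9 to 99.0 FPKM against 66.8 to 88.2, and its log2 fold change of 0.14 ± 0.12 was not called.

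Metabolism and translation were represented by highly expressed genes. Phgdh, the first enzyme of serine synthesis, stood at 285 to 348 FPKM in the hairpin arm (median 296) and 143 to 168 in the others (median 157), 0.96 ± 0.08. The hairpin groups averaged 306 ± 36.0 FPKM without and 310 ± 27.4 with β-estradiol (SD, n = 3). The NC arm averaged 151 ± 6.29 and 162 ± 3.76, the ICI arm 156 ± 4.96 and 159 ± 3.97, and the Tamo arm 161 ± 8.69 and 149 ± 6.82. Mrps21, a mitochondrial ribosomal protein gene, stood at 86.7 to 112 against 32.5 to 76.0 FPKM (1.19 ± 0.23). Rbm8a, a core gene of the exon junction complex, stood at 47.3 to 54.2 against 28.3 to 39.3 FPKM (0.46 ± 0.11, and 0.40 and not called without NC replicate 1). The proteasome subunit gene Psmb4, at 203 to 231 against 157 to 205 FPKM (0.27 ± 0.09), was not called.

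In the second raised stretch the shift was carried by other genes of as mixed a kind. Pdlim5, a gene of an adaptor between the cytoskeleton and protein kinases, stood at 15.5 to 23.8 FPKM in the hairpin arm (median 18.9) and 5.29 to 7.62 in the others (median 6.66), a log2 fold change of 1.48 ± 0.15. Tifa, an adaptor gene of TRAF6 signalling, stood at 1.61 to 2.79 against 0.375 to 1.02 FPKM (1.47 ± 0.33). Bank1, a scaffold gene best known from B cells, stood at 2.01 to 2.3 against 0.388 to 1.11 FPKM (1.38 ± 0.35, and 1.11 and not called without NC replicate 3). The arms did not overlap in any of the 3. Tifa and Bank1 were at 1 FPKM in only 1 and 2 of the 18 other libraries, so they entered the set through the hairpin arm, where they are high. Of the 214 members of the raised stretches, 10 were at 1 FPKM in no more than 2 of the 18 others, 4 of them among the 69 called higher.

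Signalling and death genes of this stretch were mostly higher. All 5 listed members for growth and receptor signalling were above 0, with 3 called and a median of 0.66. Among them, Ppp3ca, the catalytic subunit gene of calcineurin, stood at 7.45 to 11.4 against 3.8 to 6.2 FPKM (1.08 ± 0.15). All 3 listed death and survival genes were called higher, among them Tifa, which entered the set through the hairpin arm. Bcl10, which links antigen and innate receptors to NF-κB, stood at 17 to 20.2 FPKM (median 17.8) against 9.83 to 13.1 (median 11.4), 0.65 ± 0.10, and the effector caspase gene Casp6, named after its values were seen, at 2.56 to 4.4 against 1.06 to 2.24 (1.13 ± 0.28). Sh3glb1, a gene of membrane curvature and autophagy, stood at 20.9 to 25.5 against 11.7 to 16.2 FPKM (0.84 ± 0.10).

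Ptger3, the gene of the EP3 receptor for prostaglandin E2, which mast cells are known to carry, was the most highly expressed eligible gene of the last window. It stood at 31.4 to 36.7 FPKM in the hairpin arm (median 34.8) and 15.7 to 21.7 in the others (median 19.6), 0.76 ± 0.10. NC was at 19.6 ± 1.76 FPKM and SH at 34.6 ± 2.81, NC_E2 at 19.3 ± 1.04 and SH_E2 at 34.1 ± 2.22 (SD, n = 3).

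Listed translation and ribosome genes of this stretch were shifted about as much as the whole stretch, whose median was 0.42. All 7 listed members were above 0, with a median of 0.44 and 4 called. Larp7 was put on this list, although it binds and stabilises the small RNA 7SK, and was named after its values were seen. It stood at 41.8 to 44.7 FPKM (median 43.4) against 20.9 to 31.5 (median 27.1), 0.57 ± 0.16. Eif4e, the cap-binding initiation factor gene, stood at 41.7 to 46.0 against 13.7 to 35.4 FPKM without overlap, yet its log2 fold change of 0.34 ± 0.21 was not called. Rpl34, a ribosomal protein gene with processed copies elsewhere in the genome and so uncertain, stood at 126 to 153 against 75.4 to 118 FPKM (0.44 ± 0.15, not called).

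Not every gene of the raised stretches was higher. Of the 214 members 31 were below 0 for SH against NC, 16 of them coding. In the second stretch 1 of 4 listed transcription and chromatin genes was above 0 and 0 were called. Nfkb1, the gene of the NF-κB p105 and p50 subunit, stood at 3.89 to 4.83 FPKM in the hairpin arm and 4.08 to 5.7 in the others (-0.10 ± 0.13), and Tet2, a DNA demethylation enzyme gene, at 0.686 to 1.24 and 0.611 to 2.33 (-0.10 ± 0.38). H2az1, a histone variant gene, stood at 292 to 382 against 163 to 338 FPKM and was not called (0.23 ± 0.29).

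In the second stretch 3 members were called lower. Dnase2b, a lysosomal nuclease gene, stood at 3.73 to 9.76 FPKM in the hairpin arm (median 7.28) and 14.2 to 60.9 in the others (median 50.3), a log2 fold change of -2.74 ± 0.70. Its NC group alone varied widely, at 43.5 ± 25.4 FPKM, and the call was lost without NC replicate 2 (-2.43), SH replicate 1 (-2.74) or SH replicate 3 (-2.46). Enpep, the aminopeptidase A gene, stood at 0.0707 to 0.376 against 0.391 to 1.65 FPKM (-2.07 ± 0.51), entered the set through the others, and was not called without NC replicate 1 (-1.61) or SH replicate 2 (-1.66). Rabggtb, a subunit gene of the enzyme that attaches lipids to Rab proteins and chosen after its values were seen, stood at 12.8 to 18.1 against 20.8 to 30.0 FPKM (-0.71 ± 0.17).

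**Figure D4:**
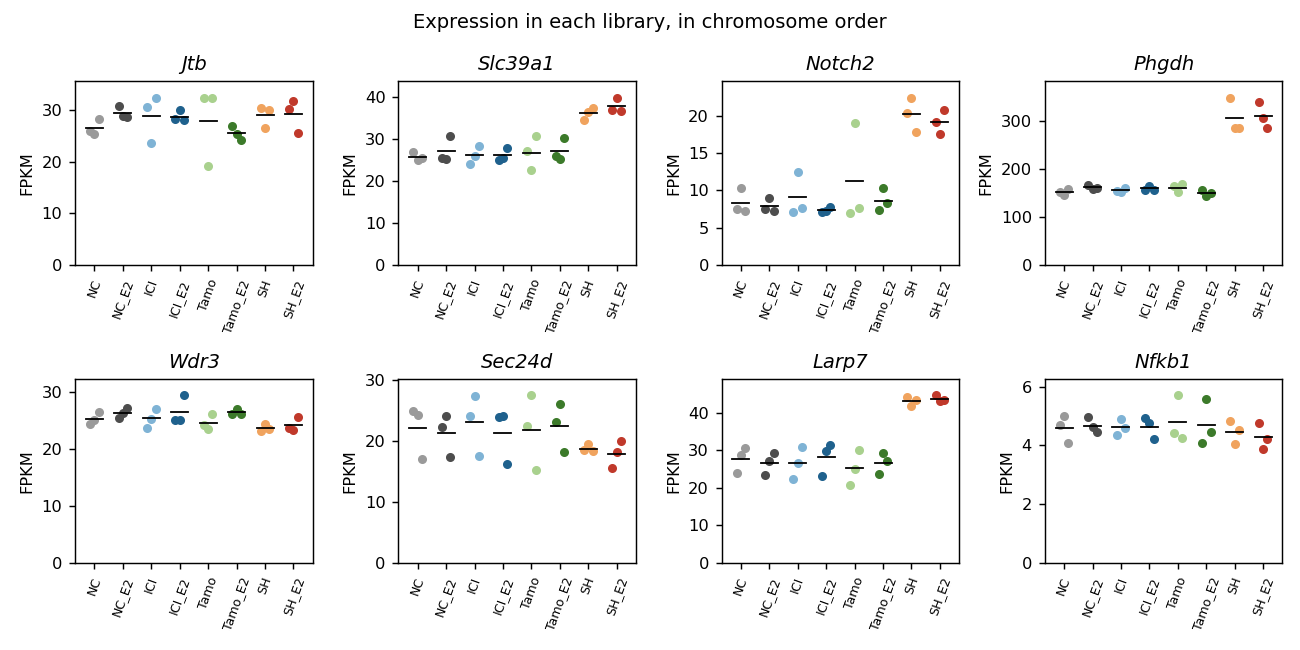
FPKM of 8 members in each library (points, 3 per group, with the group mean as a line), in order along the chromosome: Jtb (before the first raised stretch), Slc39a1, Notch2 and Phgdh (in it), Wdr3 and Sec24d (between the stretches), and Larp7 and Nfkb1 (in the second). Slc39a1, Phgdh and Larp7 are higher in all 6 hairpin-arm libraries, Notch2 is higher except against 1 Tamo library, and Jtb, Wdr3, Sec24d and Nfkb1 overlap between the arms.

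Outside the raised stretches the same functional groups centred on 0. Listed growth and receptor signalling genes had a median of 0.66 in the raised stretches (9 members, 5 called higher) and -0.14 outside (22 members, 2 higher and 1 lower). Translation genes had 0.51 (10 members, 6 higher) and -0.07 (19 members, 1 lower), and RNA processing genes 0.36 (11, 4 higher) and -0.11 (17, 1 lower). Cell cycle genes had 0.63 (4, 2 higher) and 0.02 (17, 1 lower). Metabolism and redox genes had 0.40 (10, 5 higher) and -0.01 (25, 2 higher). Folding, trafficking and turnover genes had 0.54 (15, 5 higher) and -0.07 (36, 1 higher and 3 lower). Transcription and chromatin genes had 0.52 (14, 4 higher) and -0.01 (19, 0 called), death and survival genes 0.91 (6, 5 higher) and 0.14 (5, 0 called), and mitochondrial genes 0.44 (3, 1 higher) and -0.04 (8, 0 called). Immune and leukocyte genes had 0.76 (13, 3 higher) and 0.02 (10, 2 higher). In all 10 lists the median was higher in the raised stretches, which were chosen for being high. Tifa, in the death and survival list, and Bank1, in the immune list, are counted as higher although they entered the set through the hairpin arm.

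Of the well-known genes named outside the raised stretches, Fbxw7 was called lower, with its values below, and the others here were not called. Nras, a RAS oncogene, stood at 33.4 to 44.4 FPKM in the hairpin arm and 34.9 to 50.1 in the others (-0.32 ± 0.11, not called). Pik3ca, the PI3-kinase catalytic subunit gene, stood at 3.61 to 6.32 against 3.64 to 5.76 FPKM (-0.01 ± 0.19), and the cyclin A2 gene Ccna2 at 25.2 to 48.5 against 19.1 to 46.6 (0.15 ± 0.41). Csf1, the gene of macrophage colony-stimulating factor, stood at 25.1 to 67.4 against 27.6 to 84.9 FPKM (-0.21 ± 0.47). Rps3a1, the most abundant eligible member of its window at 924 to 1190 against 774 to 1210 FPKM, was at -0.11 ± 0.16, and the leukocyte tetraspanin gene Cd53 was at -0.04 ± 0.13. Gyg, the glycogenin gene, stood at 213 to 326 against 280 to 534 FPKM (-0.66 ± 0.29, not called).

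Single genes before the first edge went the other way. Slc7a11, the cystine transporter gene that supplies glutathione synthesis, stood at 11.6 to 17.2 FPKM in the hairpin arm (median 13.2) and 22.7 to 45.9 in the others (median 34.0), -1.23 ± 0.23. Eif2a, a gene of an alternative initiation factor, stood at 6.79 to 9.03 (median 8.43) against 13.2 to 17.6 (median 15.5), -0.93 ± 0.13, and its neighbour Tsc22d2 at 2.38 to 3.34 against 3.28 to 6.69 (-0.94 ± 0.22). Fbxw7, a substrate receptor gene of a ubiquitin ligase, stood at 2.8 to 4.95 against 4.75 to 7.14 FPKM (-0.72 ± 0.15). Slc7a11 and Eif2a were without overlap. In the stretch between, the actin-capping gene Capza1 stood at 75.2 to 93.7 against 98.4 to 126 FPKM, also without overlap (-0.51 ± 0.08).

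Set against the rest of the genome, no window elsewhere was as high in SH against NC as the 90, 130 and 140 Mb windows. Of 251 windows of 10 Mb on other chromosomes with 5 or more tested genes, 0 had a median for SH against NC at or above the lowest of the 90, 130 and 140 Mb windows. The highest was 0.26, from 110 to 120 Mb of chromosome 1 with 10 genes, above the 0.24 of the 150 Mb window of chromosome 3, and the 5th to 95th percentiles were -0.21 and 0.14. For SH_E2 against NC_E2 the highest was 0.36, on chromosome 5 with 7 genes, beside 0.29 in that 150 Mb window. In either comparison 2 windows off chromosome 3 were at least as far from 0, both on the lower side, and the lowest was -0.84 and -0.77. That lowest window starts at 180 Mb of chromosome 2 and holds 38 genes. The windows before it stood at -0.42 and -0.31 (170 Mb, 60 genes) and at -0.04 and -0.01 (160 Mb, 70 genes). A run of shifted windows was thus not limited to chromosome 3. These windows were compared with windows chosen for being high, so the counts are a description.

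**Figure D5:**
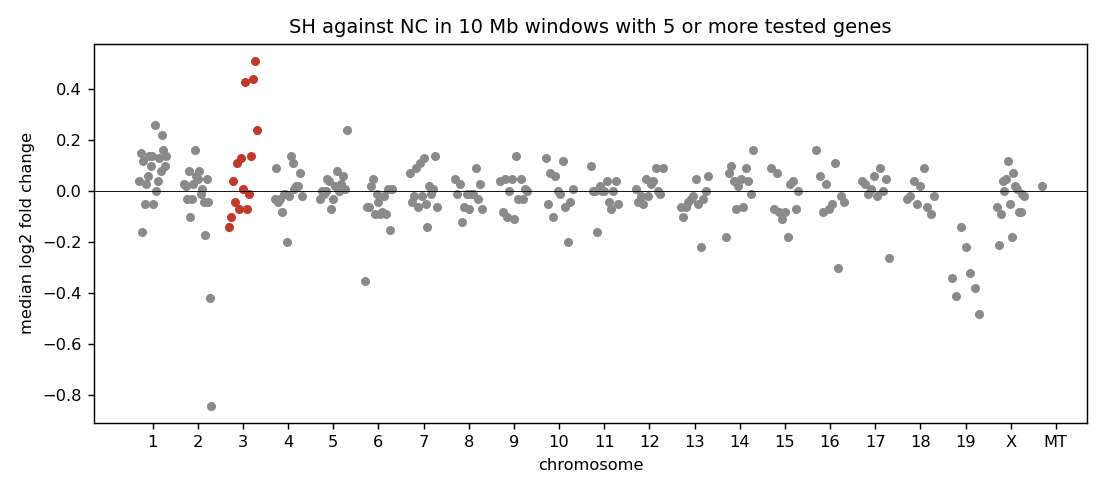
Median log2 fold change of SH against NC in every 10 Mb window with 5 or more tested genes (points, in order within each chromosome), with chromosome 3 in red. The 3 highest points, 0.43 to 0.51, are on chromosome 3, whose other windows lie between -0.14 and 0.24.

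The comparisons that set no hairpin cells against other cells were not used to choose the members, and they could be tested. By edgeR with Benjamini-Hochberg adjustment over all genes, 0 members passed in each of 9 comparisons. These were β-estradiol within the NC, SH, ICI and Tamo arms, ICI and Tamo against NC, ICI against Tamo, and ICI_E2 and Tamo_E2 against NC_E2. Of all 12183 genes, 0.00821% passed in ICI against NC and in Tamo against NC and 0% in the other 7. At an unadjusted p under 0.05 the members numbered 13 for β-estradiol in NC, 5 in SH, 9 in ICI and 21 in Tamo, 11 for ICI and 34 for Tamo against NC, 19 for ICI against Tamo, and 4 and 9 for ICI_E2 and Tamo_E2 against NC_E2. Of all tested genes the shares at that p were, in the same order, 2%, 1.34%, 1.84%, 3.56%, 0.977%, 3.53%, 3.22%, 1.44% and 2.47%, beside 2.18%, 0.839%, 1.51%, 3.52%, 1.85%, 5.7%, 3.19%, 0.671% and 1.51% of members. With the replicate number as a block, 0 members passed after adjustment in any of the 9, and the members at an unadjusted p under 0.05 were 28, 14, 20, 54, 19, 71, 57, 14 and 31, where all tested genes gave 4.34%, 2.39%, 3.96%, 8.81%, 1.95%, 8.77%, 8.09%, 2.74% and 6.48%. For Tamo against NC that is 11.9% of members, and for ICI against NC 3.19%. DESeq2 called 1 member, the predicted gene Gm43064 in Tamo_E2 against NC_E2 (-9.88). Without ICI replicate 3, edgeR called 1, Gm8325, against NC (-2.27) and against Tamo (-2.39).

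The raised stretches stayed level across these 9 comparisons. The median of their 214 members was -0.01 for β-estradiol in NC, -0.02 in SH, 0.02 in ICI and 0.02 in Tamo. It was 0.01 for ICI and -0.01 for Tamo against NC, 0.01 for ICI against Tamo, and 0.02 for each of ICI_E2 and Tamo_E2 against NC_E2. The numbers at an unadjusted edgeR p under 0.05 among them were, in the same order, 3, 0, 3, 7, 4, 9, 6, 1 and 5, or 1.4%, 0%, 1.4%, 3.27%, 1.87%, 4.21%, 2.8%, 0.467% and 2.34% of them, to be read against the shares of all tested genes above. Taken apart, the stretches could differ in sign. The first and second had 0.06 and -0.07 for Tamo against NC, and -0.03 and 0.07 for β-estradiol in Tamo. For ICI_E2 against NC_E2 they had -0.01 and 0.04, with 45.8% and 72.9% of members above 0. For Tamo against NC, 6.54% of the second stretch and 6.54% of members outside the stretches were at an unadjusted edgeR p under 0.05.

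By edgeR, the members with the smallest p in these comparisons did not pass after adjustment, whatever the size of their change. For β-estradiol in NC they were the vesicle transport gene Arfip1 (-0.34 ± 0.13), the actin-binding gene Synpo2 (-0.53 ± 0.21) and the extracellular matrix gene Ecm1 (0.40 ± 0.16). For β-estradiol in SH they were the splicing factor gene Prpf38b (-0.41 ± 0.15), the selenoprotein gene Selenot (-0.19 ± 0.09) and the splicing regulator gene Mbnl1 (-0.79 ± 0.36). In ICI cells they were Nudt6 (0.58 ± 0.22), Cryz (0.59 ± 0.24) and Zmat3 (-0.47 ± 0.20). In Tamo cells they were the mitofusin gene Mfn1 (0.23 ± 0.08), Mbnl1 (-1.03 ± 0.36) and Golph3l, a Golgi gene (-1.60 ± 0.57).

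For Tamo against NC the smallest p belonged to Ecm1 (0.54 ± 0.16), the centriole gene Sclt1 (-0.58 ± 0.18) and Selenot (-0.28 ± 0.09). For ICI against NC it belonged to Mrps21 (0.62 ± 0.23), Dcun1d1 (-0.40 ± 0.15) and Sh3glb1 (0.24 ± 0.10). ICI against Tamo was led by the mitochondrial tryptophanyl-tRNA synthetase gene Wars2 (-0.73 ± 0.22), ICI_E2 against NC_E2 by Zfp267 (-0.56 ± 0.22) and Tamo_E2 against NC_E2 by Golph3l (-1.84 ± 0.57). Mrps21 and Sh3glb1 lie in the raised stretches, with 1.19 and 0.84 in SH against NC, a comparison that shares the NC libraries with ICI against NC. Ecm1 was also called higher in SH against NC, which shares the NC libraries with Tamo against NC too.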

How the data were processed

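RNA of 24 libraries, 8 groups of 3, was analysed from a single table. Per the submitters' processing notes, cutadapt and HISAT2 were used with the GRCm38 build; which quantifier and gene annotation were used is not given in the sources used here. FPKM values, deposited by the authors per the file headers, were used for levels and for the filter of 1 FPKM in 3 libraries. The authors also deposited counts per gene, per the file headers, which were taken as estimated counts (expected counts) because low values pile up at multiples of 4; they were whole and needed no rounding. Depth was 42.1 to 68.8 M estimated counts per library. 0 columns belonged to other samples.

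Counts of 12183 genes were scaled by TMM and fitted with all 24 libraries in edgeR 4.0.16 (R 4.3.3), giving each group its own coefficient; quasi-likelihood tests were adjusted by Benjamini-Hochberg. Errors are SE for log2 fold changes and SD over 3 libraries for FPKM, and groups were taken from the sample titles. Alternatives used limma 3.58.1 on log2(FPKM + 1) and log2(FPKM + 0.1), DESeq2 1.42.0, a replicate block, other filters, other window sizes and each library left out. Counts divided by 4, the division into runs (at least 5 coding members each, log2 fold changes limited to 1.5 in size) and the promoter searches were added after the data were seen. The edgeR fit and the division were tested on simulated data. Replicate numbers were taken to pair the libraries where every pair of same-numbered libraries deviated together (correlation over 0.1 across genes). Of 45 such correlations over 15 comparisons, 43 passed, from 0.0949 to 0.472, and the 2 that did not belong to SH_E2 and ICI_E2 against NC_E2; the pairing comes from the data, not from the labels.

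The members and gene lists were chosen with earlier results of these data known. Named genes were coding members with a regular symbol: the most expressed of each window, the 10 highest and 5 lowest called and not overlapping in SH against NC, the 3 smallest p of each other comparison, the most expressed members of each list, and a set of well-known genes. Edge genes and those said to be chosen after their values were seen lie outside this rule.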

Additional observations from a re-analysis of the deposited data

How the results depend on the processing

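The medians of members and of the raised stretches kept their sign under every alternative run. Of the 30 named members called in SH against NC, 0 reversed, and named members not called there were not checked for this. The median outside the stretches, close to 0, changed sign with limma. The member median of SH against NC was 0.18 with limma on log2(FPKM + 0.1), 0.14 with limma on log2(FPKM + 1), 0.10 at a mean FPKM of 5 or more, 0.04 without the filter, 0.16 for coding genes and 0.12 with counts divided by 4 (0.09 to 0.14 leaving out 1 library). For SH_E2 against NC_E2 it was 0.16 (limma, 0.1), 0.08 (5 FPKM) and 0.08 (no filter). For SH against ICI it was 0.17 and 0.15 (limma, 0.1 and 1), 0.05 (no filter) and 0.15 (coding), and 0.10 to 0.14 leaving out 1 library. For SH against Tamo it was 0.21 (limma, 0.1), 0.10 (5 FPKM) and 0.04 (no filter), and 0.08 to 0.16 leaving out 1 library. For SH_E2 against ICI_E2 it was 0.16 (limma, 0.1), 0.08 (5 FPKM), 0.02 (no filter) and 0.15 (coding), and for SH_E2 against Tamo_E2 0.16 (limma, 0.1) and 0.03 (no filter), with 0.08 to 0.14 leaving out 1 library.

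The first raised stretch had 0.57 at 5 FPKM and 0.54 for coding genes, and the second 0.47 (limma, 0.1) and 0.24 (no filter). With β-estradiol the second had 0.49 and 0.40 (limma, 0.1 and 1), 0.44 (5 FPKM), 0.40 (no filter), 0.50 (coding) and 0.47 with the replicate block, and 0.42 to 0.49 leaving out 1 library. Outside the stretches the median was 0.03 and 0.02 with limma and -0.04 at 5 FPKM (-0.04 to -0.00 leaving out 1 library), and with β-estradiol 0.04 and 0.03 with limma. The 140 Mb window stood at 0.45 as a mean, 0.59 against ICI, 0.61 against Tamo and 0.44 in a window of 20 Mb. Dropping the filter adds genes with almost no counts, and left the first stretch at 0.43 in SH against NC, beside 0.24 in the second. The cause of these changes between settings was not tested.

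Members called in SH against NC were 44 higher and 7 lower with 6 libraries alone, which leaves fewer samples to estimate the spread, and 138 and 50 with the replicate block. For SH_E2 against NC_E2 they were 49 and 8, with 11 lower at 5 FPKM and 9 to 18 lower leaving out 1 library. There the replicate block gave 147 and 51, although its numbers did not meet the pairing criterion. Of 6 libraries, 4 correlated best with their own number. Shares of all tested genes are not given for the filter, leave-out and block fits here. Their counts are thus not read as particular to members. In SH against NC the block raised the shares of all tested genes to 11% higher and 10.2% lower, from 4.92% and 4.15%. The block changed no call in the comparisons without hairpin cells on one side only. In those, DESeq2 called 1 member in Tamo_E2 against NC_E2, and leaving out 1 library gave 0 to 1 in ICI against NC and in ICI against Tamo. Of 30 named members called in SH against NC, 19 kept the call under every alternative run, and Bank1, Cers2, Dnase2b, Ecm1, Enpep, Fbxw7, Rbm8a, Sf3b4, Ssr3, Tmod4 and Txnip lost it under at least 1. At a median SE of 0.212 on the log2 scale, single genes shifted as much as the stretch medians were often not called.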
